A study of Mus musculus with 4 samples.

Results

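The 7 genes of the Fos and Jun families, Fos, Fosb, Fosl1, Fosl2, Jun, Junb and Jund, encode the subunits of the transcription factor AP-1. They were described here by the open chromatin around them in primary myoblasts from WT mice and from mice without Tet2. The genes were chosen by name, and ATAC-seq peaks were assigned to them by position alone. Every peak from 50 kb upstream of a gene's start to 50 kb past its end was taken (mm9, GENCODE release M1 gene records). These windows held 42 of the 25775 peaks in the WT list and 8 of the 3836 peaks in the Tet2 KO list, over 0.748 Mb in all. Some of these peaks lie nearer to the start of another gene, and which gene a peak acts on was not tested.

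AP-1 binds DNA as a dimer of basic leucine zipper proteins. Jun proteins pair with each other or with a Fos protein, whereas Fos proteins need a Jun partner, and the dimers bind the heptamer TGACTCA. Several of the genes, Fos foremost, are immediate early genes: serum, growth factors or tissue handling switch them on within minutes, through serum response factor at the CArG box (CC, 6 bases of A or T, then GG) and through CREB and ATF proteins at CRE sites. In muscle, AP-1 sites are frequent in the open chromatin of proliferating satellite cells and myoblasts, and E boxes bound by MyoD lie in many of the same regions. Tet2, the protein missing in the KO cells, oxidises methylated cytosine, a step on the way to DNA demethylation.

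ATAC-seq uses the transposase Tn5 to cut accessible DNA, so that a peak marks a stretch of open chromatin. The WT and Tet2 KO mice were adult C57BL/6 males, and the KO mice carried a germline deletion of Tet2 exon 3 that is present in every cell, not only in muscle. Satellite cells were sorted from hindlimb muscle of both genotypes, as cells negative for PI, CD45, CD11b, CD31 and Sca1 and positive for CD34 and Integrin a7, and grown for 3 days into MyoD+ myoblasts, and each library was made from 5000 cells, 2 libraries per genotype. How many animals entered a library is not given in the sources used here. One peak list per genotype was analysed, each named for a single library, so no value has a replicate and no difference between the genotypes was tested. The Wilson 95% intervals given cover counting error only. Fewer cells with an open site and a site less open in each cell cannot be told apart.

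The lists differ in more than the genotype. Background coverage over the genome was 0.649 fragments per base for WT but 1.384 for Tet2 KO, and the numbering of the peaks skips 9707 of 35482 numbers in WT and 4403 of 8239 in Tet2 KO, so each list holds a part of the peaks that were called. A site without a listed peak is therefore not shown to be closed. The Tet2 gene had a WT promoter peak and no Tet2 KO peak, and neither list had a peak on its exons beyond that promoter peak, which leaves the deletion unchecked. Promoter peaks were present at 3 of 8 satellite cell and myoblast markers in WT (Des, Myod1 and Megf10) and at 2 in Tet2 KO (Des and Myod1). Pax7, Myf5, Cdh15, Vcam1 and Itga7, the gene of an integrin used in the sort, had none in either list. Of 11 markers of other cells in muscle, 1 had a promoter peak in WT (Pecam1, of endothelium) and 0 in Tet2 KO, and none of Ptprc, Itgam and Cd68, of blood cells, had one in either list.

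A selection of WT peaks is printed first. Each one shown sits on a member promoter, carries a CArG box or an AP-1 site, or is listed in both genotypes. Not every such peak is shown, and the Jun promoter is among those left out. Distances are those of the peak summit from the gene's start, negative upstream. All are mm9, read 5′ to 3′ on the strand of the named gene, with annotated exon bases left off. Capitals mark CArG boxes in the first 5 lines, and an AP-1 heptamer (TGACTCA, or TGAGTCA on the other strand), the Jun-type octamer TGACATCA or the E box CAGCTG in the rest, with 1 E box also in the Fosl1 line. A peak over 300 bases wide is shown by a stretch of 300 around its summit or motif.
Fos -260 bp, chr12:86814458-86814636, plus strand: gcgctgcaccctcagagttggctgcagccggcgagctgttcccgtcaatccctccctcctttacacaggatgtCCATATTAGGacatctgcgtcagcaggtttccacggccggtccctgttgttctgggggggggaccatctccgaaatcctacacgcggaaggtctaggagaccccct
Fos 12173 bp, chr12:86826882-86827181, plus strand: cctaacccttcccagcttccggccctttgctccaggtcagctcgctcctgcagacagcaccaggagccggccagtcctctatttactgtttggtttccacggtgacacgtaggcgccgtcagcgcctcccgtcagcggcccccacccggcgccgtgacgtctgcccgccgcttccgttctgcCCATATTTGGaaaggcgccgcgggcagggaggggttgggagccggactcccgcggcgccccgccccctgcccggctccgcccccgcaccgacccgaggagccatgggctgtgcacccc
Fosl1 41456 bp, chr19:5489027-5489267, plus strand: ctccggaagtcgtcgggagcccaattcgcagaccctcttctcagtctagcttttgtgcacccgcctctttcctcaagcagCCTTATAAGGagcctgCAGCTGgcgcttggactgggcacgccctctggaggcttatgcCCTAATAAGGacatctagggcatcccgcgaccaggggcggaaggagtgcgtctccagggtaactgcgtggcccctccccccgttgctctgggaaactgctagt
Junb -1371 bp, chr8:87503903-87504086, minus strand: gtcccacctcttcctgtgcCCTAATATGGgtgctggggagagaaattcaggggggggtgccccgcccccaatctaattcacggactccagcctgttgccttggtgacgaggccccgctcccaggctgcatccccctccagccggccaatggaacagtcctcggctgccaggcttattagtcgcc
Junb 2070 bp, chr8:87500462-87500629, minus strand: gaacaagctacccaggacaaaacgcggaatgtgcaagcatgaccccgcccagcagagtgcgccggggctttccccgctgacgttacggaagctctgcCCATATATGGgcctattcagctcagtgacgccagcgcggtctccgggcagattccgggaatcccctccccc
Fos 24084 bp, chr12:86838774-86839073, plus strand: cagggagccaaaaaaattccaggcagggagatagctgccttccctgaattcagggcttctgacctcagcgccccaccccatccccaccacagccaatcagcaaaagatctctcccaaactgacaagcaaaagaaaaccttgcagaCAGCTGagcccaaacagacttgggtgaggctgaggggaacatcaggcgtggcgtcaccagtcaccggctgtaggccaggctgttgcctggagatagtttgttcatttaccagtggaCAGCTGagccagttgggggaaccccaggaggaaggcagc
Fos 45846 bp, chr12:86860589-86860806, plus strand: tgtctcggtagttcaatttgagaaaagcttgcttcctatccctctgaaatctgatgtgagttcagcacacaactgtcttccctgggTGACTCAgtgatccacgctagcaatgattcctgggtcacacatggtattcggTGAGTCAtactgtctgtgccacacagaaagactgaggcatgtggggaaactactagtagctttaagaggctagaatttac
Fosb -6811 bp, chr7:19902055-19902354, minus strand: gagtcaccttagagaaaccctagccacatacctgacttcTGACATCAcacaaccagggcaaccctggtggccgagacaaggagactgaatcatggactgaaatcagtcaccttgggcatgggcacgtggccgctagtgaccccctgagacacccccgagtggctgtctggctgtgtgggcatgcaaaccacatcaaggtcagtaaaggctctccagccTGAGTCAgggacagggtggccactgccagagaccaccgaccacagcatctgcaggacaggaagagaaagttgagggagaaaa
Fosl2 -667 bp, chr5:32438056-32438355, plus strand: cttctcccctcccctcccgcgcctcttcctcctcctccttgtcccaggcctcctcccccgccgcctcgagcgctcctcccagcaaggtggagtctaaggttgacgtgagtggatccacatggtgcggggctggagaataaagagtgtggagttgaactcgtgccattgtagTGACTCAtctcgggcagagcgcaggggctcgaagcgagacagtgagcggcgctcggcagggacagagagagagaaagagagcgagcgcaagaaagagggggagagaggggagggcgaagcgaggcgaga
Jun 50668 bp, chr4:94668095-94668394, minus strand: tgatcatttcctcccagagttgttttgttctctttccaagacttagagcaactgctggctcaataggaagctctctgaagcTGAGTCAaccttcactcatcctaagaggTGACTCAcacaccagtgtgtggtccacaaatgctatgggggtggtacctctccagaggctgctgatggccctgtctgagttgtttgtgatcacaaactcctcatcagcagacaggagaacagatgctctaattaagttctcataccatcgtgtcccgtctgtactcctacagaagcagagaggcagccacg
Jund -15345 bp, chr8:73206163-73206454, plus strand: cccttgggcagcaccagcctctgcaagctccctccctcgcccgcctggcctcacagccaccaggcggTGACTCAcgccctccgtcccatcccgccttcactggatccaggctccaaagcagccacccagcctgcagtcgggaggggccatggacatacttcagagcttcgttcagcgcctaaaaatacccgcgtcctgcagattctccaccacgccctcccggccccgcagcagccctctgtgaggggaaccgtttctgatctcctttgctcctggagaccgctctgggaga

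Each of the 7 genes had WT peaks in its window, between 4 and 8, with a median of 6. Over all 22350 protein-coding genes the median window held 2 WT peaks, with quartiles of 0 and 4. In the Tet2 KO list the windows held between 0 and 3 peaks, and 5 of the 7 genes had at least 1, against 31.4% of protein-coding genes. Fosb and Jund were the members without a Tet2 KO peak. All 8 Tet2 KO peaks (interval 67.6 to 100%) shared at least 1 bp with a WT peak, beside 96.8% of all Tet2 KO peaks. In the other direction, 8 of 42 WT peaks (19.0%, interval 9.98 to 33.3%) had a Tet2 KO peak, beside 14.1% of all WT peaks, a figure that lies inside the interval. WT peaks outnumbered Tet2 KO peaks 5.25 to 1 in the windows and 6.72 to 1 over the whole lists.

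**Figure D1:**
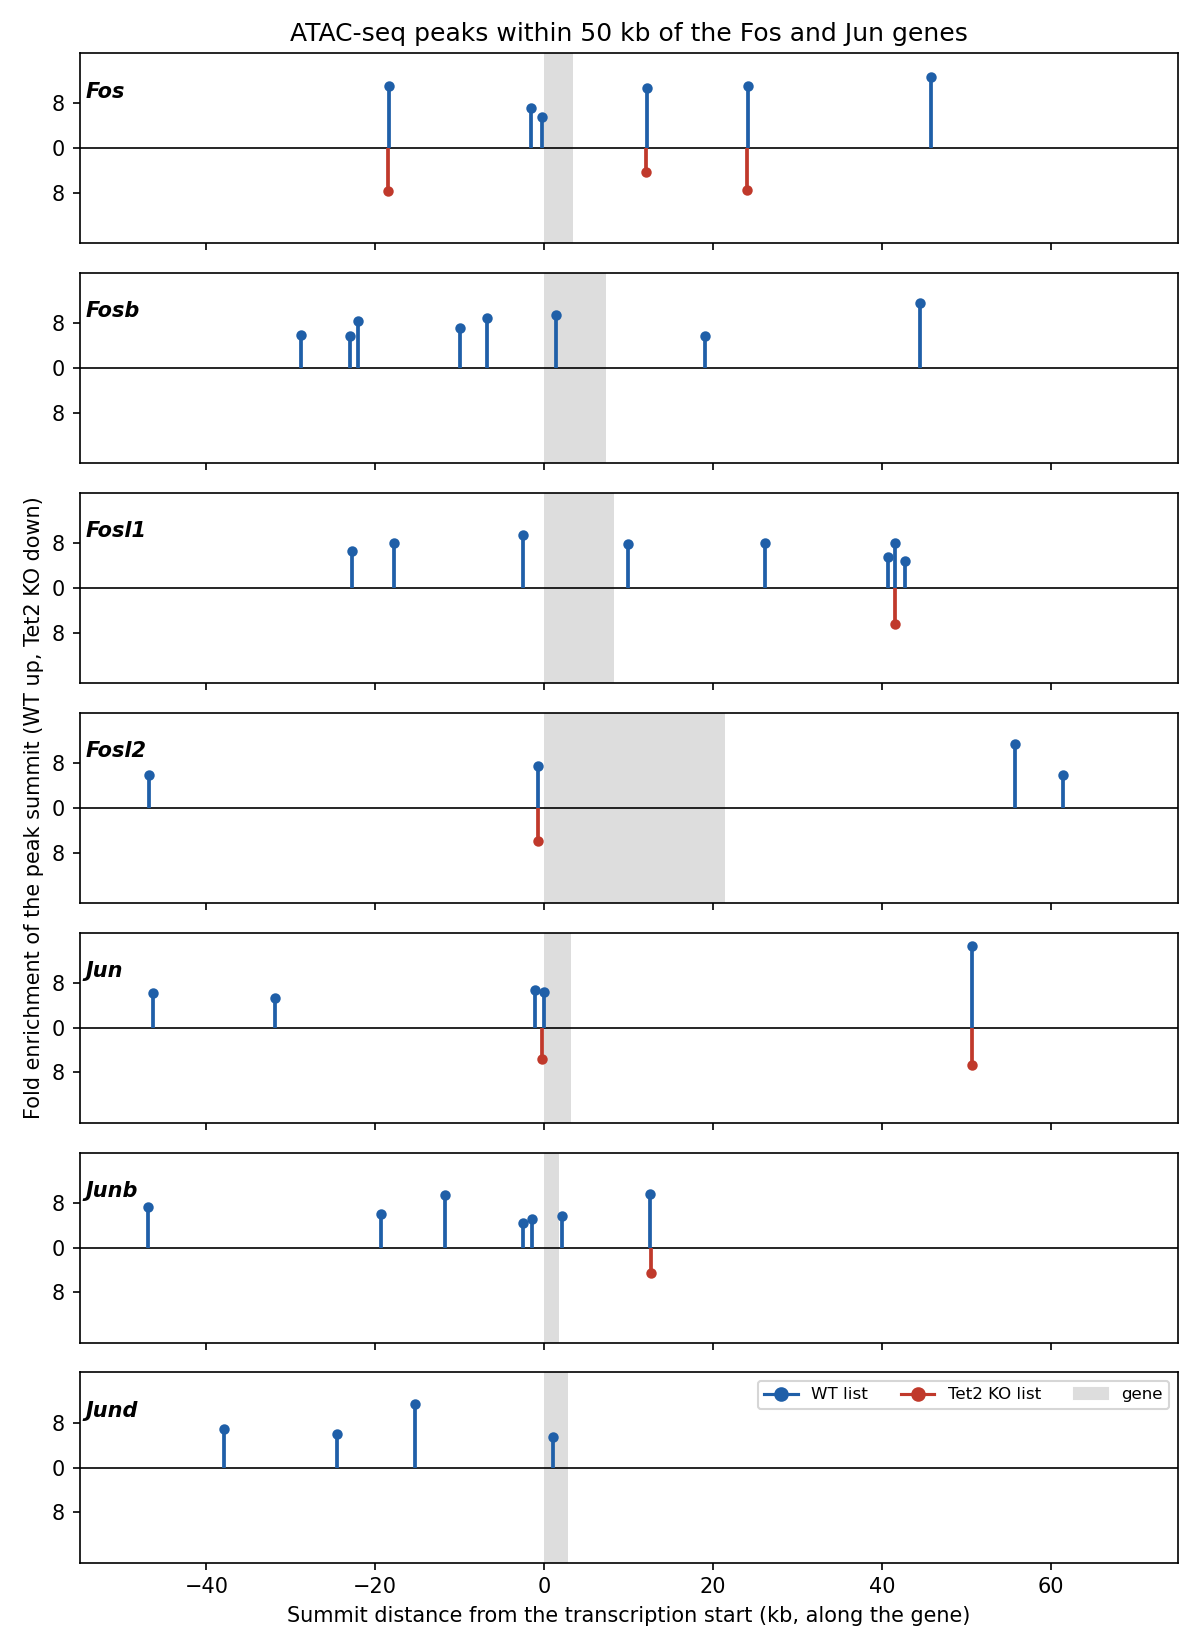
Every listed peak within 50 kb of each gene, by the distance of its summit from the transcription start in kb (x axis, along the direction of transcription). The height is the summit's enrichment (fold over local background), WT upward in blue and Tet2 KO downward in red, and the grey band is the gene. Fos has 3 Tet2 KO peaks, Jun 2, Fosl1, Fosl2 and Junb 1 each, and Fosb and Jund 0, and each red line stands under a blue one.

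The number of genes around a member differed widely, and the peak counts have to be read beside it. The windows of Fos and Jun held no protein-coding start but their own. Those of Fosl2, Jund, Fosb, Junb and Fosl1 held 2, 5, 7, 9 and 10 starts. Fosl1, with 8 WT peaks, lay among 236 genes with as many starts, whose median was 5, and Junb, with 7, among 390 genes with a median of 5. Fos had 6 WT peaks against a median of 1 over the 3907 genes alone in their window, of which 7.12% had as many or more, and 3 Tet2 KO peaks, which 0.947% of those genes reached or passed. For Jun, with 5 WT and 2 Tet2 KO peaks, these shares were 11.8% and 4.12%. At the other end, an absence of Tet2 KO peaks as at Fosb and Jund was common: it was found for 51.2% of genes with 7 starts and 64.0% of genes with 5.

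By place, 5 of the 42 WT peaks lay at a member's own promoter (1000 bp upstream to 100 bp downstream of an annotated transcript start), 12 at the promoter of another protein-coding gene, 1 in a member's own body, 5 in another gene's body and 19 between genes. Tet2 KO peaks overlapped 2, 2, 0, 1 and 3 of these. With the class set at the peak centre, promoter peaks of the members and their neighbours had a Tet2 KO peak in 4 of 18 cases (22.2%, interval 9.0 to 45.2%), beside 22.5% of all WT promoter peaks. Off promoters it was 4 of 24 (16.7%, interval 6.68 to 35.9%), beside 10.9%. Both background shares lie within the intervals of the members.

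**Figure D2:**
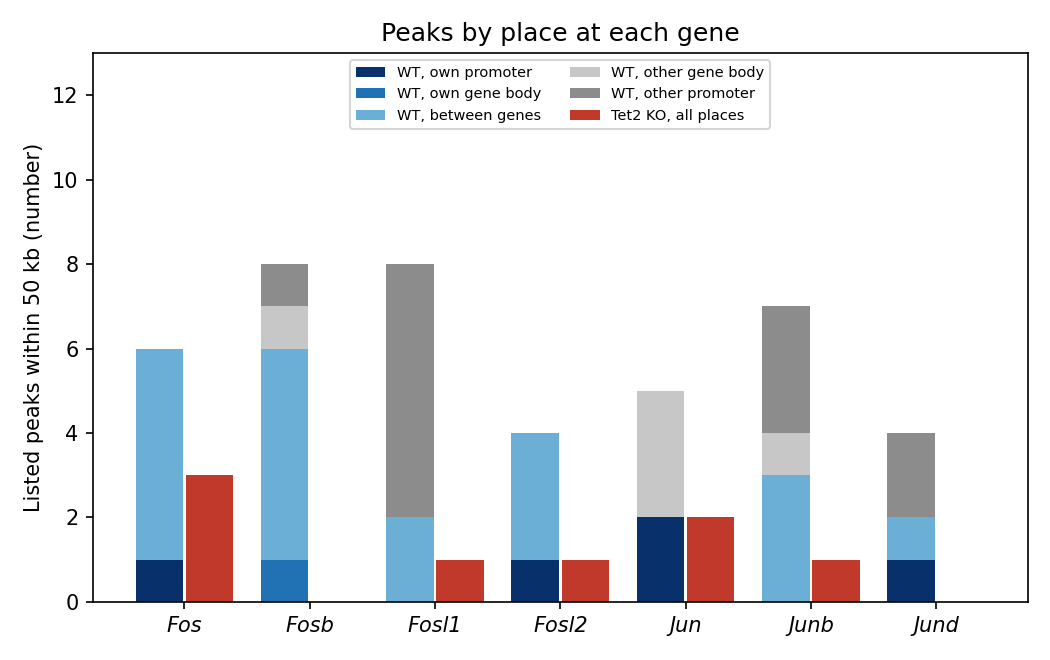
Number of listed peaks within 50 kb of each gene (y axis), WT as stacked bars by place and Tet2 KO as a red bar for all places together. At Fosl1, 6 of 8 WT peaks lie at promoters of other genes, whereas 5 of 6 at Fos lie between genes.

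Promoter peaks were listed for 4 of the 7 genes in WT, beside 30.9% of protein-coding genes, and for 2 of 7 in Tet2 KO, beside 8.04%. In WT these were Fos, Fosl2, Jun and Jund, and in Tet2 KO Fosl2 and Jun. Fold enrichment, the height of a summit relative to its surroundings within 1 library, was below the middle of the list here: the highest WT peak reached 5.49 at Fos, 5.47 at Jund, 6.67 at Jun and 7.47 at Fosl2, where the median of all WT peaks was 7.89. By fragments at the summit this held for Fos and Jund, with 14 each against a median of 16. The summits at Jun and Fosl2 held 24 and 22, over local backgrounds of 2.75 and 2.08. The Jund peak counted through the start of a second annotated transcript inside the gene, and by the start of the gene record alone the number was 3. Fosb, Fosl1 and Junb had no promoter peak in either list, although each had a WT peak within 3000 bp of its start.

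Fos (chr12:86814840-86818223, plus strand) encodes the founding Fos protein. Its 6 WT peaks lay at -18.4, -1.6, -0.3, 12.2, 24.1 and 45.8 kb from the start, with fold enrichments of 11.2, 7.19, 5.49, 10.7, 11.1 and 12.7. The promoter was thus the lowest of the 6, and the 4 distal peaks were the highest. This promoter peak, at chr12:86814458-86814636, held 14 fragments at its summit and carried a CArG box at -309 bp, the place of the serum response element for which the gene is known. Tet2 KO peaks stood at 3 of the 4 distal sites and at neither of the peaks near the start. Fold enrichment was 11.2 in WT and 7.61 in Tet2 KO at -18.4 kb, 10.7 and 4.30 at 12.2 kb, and 11.1 and 7.55 at 24.1 kb. The Tet2 KO values at -18.4 and 24.1 kb were above 89.6% and 89.1% of that list's peaks, whereas the value at 12.2 kb was above only 10.3%. The Tet2 KO peak at 12.2 kb ended short of the CArG box that the WT peak there contained.

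The peak at 45.8 kb from Fos, at chr12:86860589-86860806, had the highest fold of the locus in WT, 12.7, above 93.7% of the WT list. Its summit held 26 fragments, fewer than the 34 at 24.1 kb and the 29 at -18.4 kb. Its local background was lower, at 1.12 against 2.16 and 1.69. This 45.8 kb peak held 2 AP-1 heptamers, at -8 and 44 bp from its summit, and it had no Tet2 KO peak. The peaks of a list are numbered along the genome, and across the 321741 bp between the Tet2 KO peaks that flank the window, no number of the Tet2 KO list was skipped. The promoter, the -1.6 kb peak and the 45.8 kb peak of Fos therefore had no peak among the numbered calls of that library. This was not the usual case. Of the 34 WT peaks without a Tet2 KO peak, 31 lay in a Tet2 KO interval with a skipped number, beside 83.2% of all such WT peaks, and the 3 exceptions were those of Fos.

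Fosb (chr7:19888070-19895394, minus strand) encodes a close relative of Fos that is itself an immediate early product. It had 8 WT peaks with folds from 5.73 to 11.7, and 0 Tet2 KO peaks. The peak nearest its start lay 1.4 kb downstream, inside the gene, at a fold of 9.39. Another 5 peaks lay upstream between genes, at -6.8, -10.0, -22.1, -23.0 and -28.8 kb. Those at -6.8, -22.1 and -23.0 kb carried AP-1 heptamers, with 2 in the -6.8 kb peak (1 of them in the stretch shown), which also held a Jun-type octamer, and the -28.8 kb peak carried a CRE octamer (TGACGTCA). The highest fold, 11.7 at 44.5 kb, lay in Vasp, and the peak at 19.0 kb at the promoter of Rtn2. The peaks at -22.1, -23.0 and -28.8 kb lay nearer to the start of Ercc1 than to that of Fosb. The start of Fosb lay in an interval of 7859 bp between listed WT peaks in which 1 number was skipped.

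Fosl1 (chr19:5447703-5455945, plus strand), which encodes Fra-1, had 8 WT peaks with folds from 4.79 to 9.40, of which the highest lay between genes at -2.5 kb. Another peak between genes, at -17.8 kb, carried an AP-1 heptamer at a fold of 8.05. It lay nearer to the start of AI837181 than to that of Fosl1. The other 6 belonged to promoters of neighbours: Drap1 and AI837181, Ccdc85b, Efemp2, Mus81 with 2 peaks, and Cfl1. Its only Tet2 KO peak was at one of these, at 41.5 kb by Mus81, where the fold was 8.04 in WT and 6.46 in Tet2 KO. This region carried 2 CArG boxes, and both lay inside the Tet2 KO peak as well. No number was skipped between the WT peaks on either side of the Fosl1 start.

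Fosl2 (chr5:32438845-32460204, plus strand), which encodes Fra-2, had 4 WT peaks. Its promoter peak, at chr5:32438056-32438372, had a fold of 7.47 in WT and 5.95 in Tet2 KO, with 22 and 18 fragments at the summit. It was the 1 member promoter with an AP-1 heptamer, 52 bp from the summit, and the heptamer was inside the peak of both lists. The peaks at -46.8, 55.7 and 61.4 kb had WT folds of 5.79, 11.4 and 5.88 and no Tet2 KO peak. Those at -46.8 and 55.7 kb carried an AP-1 heptamer each. The nearest protein-coding start was that of Gm10463 for the -46.8 kb peak and of Plb1 for those at 55.7 and 61.4 kb.

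Jun (chr4:94715725-94718913, minus strand), whose product can bind DNA as a homodimer, had 5 WT peaks. A pair lay at its promoter, with summits at 12 and -1107 bp and folds of 6.33 and 6.67. The former covered the start, reached a fold of 5.58 in Tet2 KO and held 23 fragments in WT and 17 in Tet2 KO. It carried a Jun-type octamer at -45 bp from the start, inside the peak of both lists. The peak at 50.7 kb, in the annotated gene Gm12694 at chr4:94668031-94668416, had the highest fold of all 42, 14.6, above 98.2% of the WT list. It carried 2 AP-1 heptamers, 28 bp apart, and its Tet2 KO peak had a fold of 6.67 and contained both. The nearest protein-coding start to this peak was that of Mysm1, at 22454 bp. The remaining peaks, at -31.9 and -46.3 kb in BC042782, had folds of 5.39 and 6.19 in WT and no Tet2 KO peak. The former carried an E box and the latter an AP-1 heptamer.

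Junb (chr8:87500811-87502617, minus strand) encodes a Jun protein that often opposes the growth-promoting activity of Jun. Its 7 WT peaks had folds from 4.44 to 9.66. Those nearest the gene had the lowest folds, 4.44, 5.04 and 5.66 for -2.5, -1.4 and 2.1 kb. Their summits held 21 to 26 fragments, more than the median of 16 in the WT list, over local backgrounds from 3.76 to 3.96. The peaks at -1.4 and 2.1 kb flank the gene and each carried a CArG box, and neither had a Tet2 KO peak. The -2.5 kb peak carried an AP-1 heptamer and an E box, and had no Tet2 KO peak either. Higher folds were found at the promoters of Hook2 (9.36) and Rnaseh2a (9.66), with 24 and 22 fragments over local backgrounds of 1.67 and 1.38. The Rnaseh2a peak, at 12.5 kb, had the only Tet2 KO peak of the window, at 4.52. The remaining WT peaks lay at the Asna1 promoter, at -46.9 kb, and in a coding exon of Hook2, at -19.3 kb. Their folds were 7.27 and 6.08, with 15 and 10 fragments at the summit. The start of Junb lay in a WT interval of 3273 bp in which 1 number was skipped, so a further call near the start cannot be told from this list. Over protein-coding genes without a WT promoter peak, 50.9% of starts lay in an interval with a skipped number.

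Jund (chr8:73221638-73224515, plus strand), which encodes the Jun protein that most cells make at a steady level, had 4 WT peaks and no Tet2 KO peak. The peak inside the gene, at chr8:73222612-73222823, had a fold of 5.47 with 14 fragments at the summit and carried a CRE octamer. The strongest, at -15.3 kb between genes, had a fold of 11.4 and an AP-1 heptamer -60 bp from its summit. The start of Lsm4 was nearer to this peak, at 9146 bp, than that of Jund. The others were the promoters of Pgpep1 (6.88) and Lsm4 (6.00).

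At the 8 sites listed in both genotypes, fold enrichment was higher in WT in 8 of 8, which is the case for 98.1% of all 3722 overlapping pairs. The ratio of WT to Tet2 KO fold had a median of 1.47 at these sites, from 1.13 to 2.5, against a median of 1.89 with quartiles of 1.61 and 2.22 over all pairs. The 8 sites fell into different parts of that range. The promoters of Jun and Fosl2 and the Mus81 promoter near Fosl1 had ratios of 1.13, 1.26 and 1.25, higher than at most 5.78% of all pairs, and the Fos sites at -18.4 and 24.1 kb had 1.47 each, higher than 15.3% and 15.4%. By contrast the sites at 12.2 kb from Fos, 50.7 kb from Jun and 12.5 kb from Junb had ratios of 2.5, 2.19 and 2.14, higher than 87.3%, 72.9% and 69.7%. Fragments at the summit ran from 22 to 34 in WT and from 10 to 24 in Tet2 KO, and each site had more in WT, although the Tet2 KO library had the higher genome-wide background. Their ratio had a median of 1.5, against 1.81 over all pairs. With each summit divided by the genome-wide background of its library, the ratio had a median of 3.19, from 2.61 to 5.12, against 3.87 over all pairs. This division multiplies every fragment ratio by the same factor. Local backgrounds at the 8 sites differed less between the lists, at 1.05 to 2.98 in WT and 1.55 to 2.87 in Tet2 KO.

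**Figure D3:**
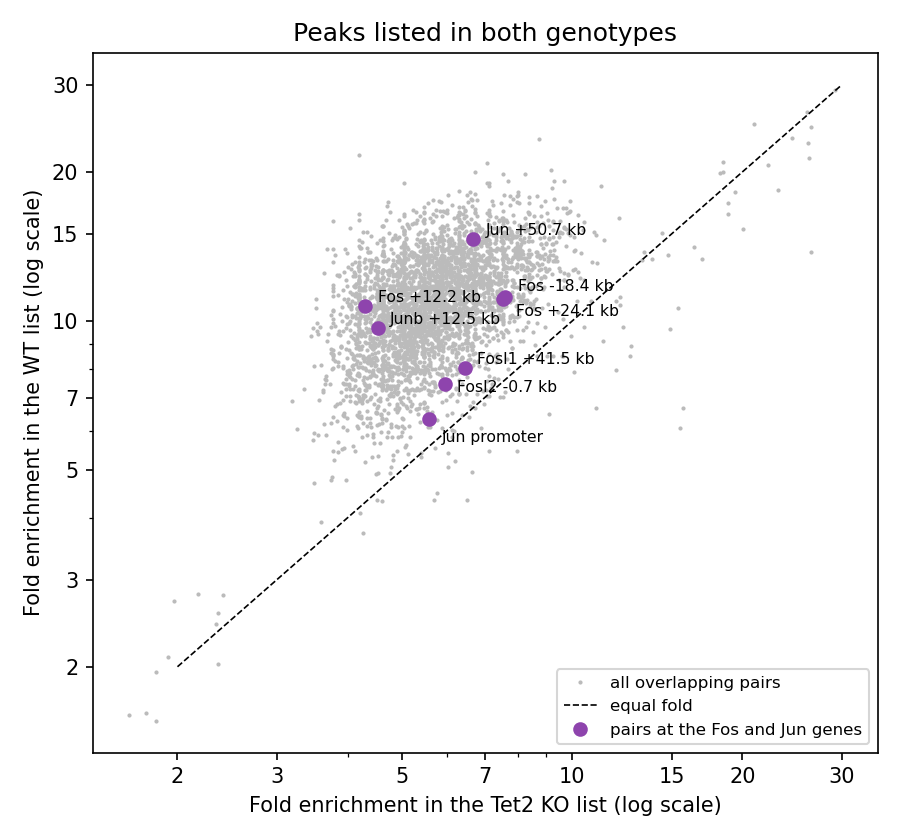
Fold enrichment in the WT list (y axis) against that in the Tet2 KO list (x axis), both on log scales, for the 3722 overlapping pairs of peaks in grey and the 8 at the Fos and Jun genes in purple. The dashed line marks equal folds, and all 8 lie above it, with the Jun promoter nearest to it (6.33 against 5.58).

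The WT peaks with a Tet2 KO peak were mostly the stronger ones, at these genes as in the whole list. Their median WT fold was 10.2, from 6.33 to 14.6, and that of the 34 without one was 6.65, from 4.44 to 12.7, so the ranges overlapped. When all WT peaks were split by fold into 5 groups of equal size, Tet2 KO peaks were found for 0 of 15, 1 of 8, 2 of 6, 1 of 5 and 4 of 8 member peaks from the lowest group to the highest. Over all WT peaks the shares were 1.75, 3.34, 7.33, 16.1 and 41.9%. The Jun promoter was the 1 of 8 in the group above the lowest. In the highest group the sites with no Tet2 KO peak were Fos 45.8 kb, Fosb 44.5 kb, Fosl2 55.7 kb and Jund -15.3 kb, with folds from 11.4 to 12.7. An AP-1 heptamer was in 3 of these 4, too few for a share to be read. All 4 lay off promoters, where 40.3% of all WT peaks carried one. The nearest protein-coding start was that of Vasp for the Fosb site, of Plb1 for the Fosl2 site and of Lsm4 for the Jund site.

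The AP-1 heptamer itself, the site that the products of these genes bind, was found in 12 of 42 member WT peaks (28.6%, interval 17.2 to 43.6%), beside 31.3% of all WT peaks. Off promoters it was in 10 of 24 (41.7%, interval 24.5 to 61.2%), beside 40.3%, and both background shares lie inside the intervals. Among member peaks it was in 2 of 8 with a Tet2 KO peak and in 10 of 34 without. Of the 10 off promoters with a heptamer, 1 had a Tet2 KO peak, the Jun 50.7 kb site, beside 13.4% of all such WT peaks. E boxes (CAGCTG) were in 8 of 42 (19.0%, interval 9.98 to 33.3%), beside 36.0% of all WT peaks. Promoter peaks, which hold fewer E boxes, were 18 of the 42 but 7046 of all 25775. By class, E boxes were in 2 of 18 promoter peaks (11.1%), beside 17.6%, and in 6 of 24 off promoters (25%), beside 42.9%. Among the 8 were the Fos sites at -18.4 and 24.1 kb, both with 2 E boxes in WT and both with a Tet2 KO peak.

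CArG boxes were in 5 of 42 member WT peaks (11.9%, interval 5.19 to 25%), beside 1.45% of all WT peaks. They stood at the Fos promoter, 12.2 kb from Fos, on both sides of Junb and, with 2 boxes, at the Mus81 promoter in the Fosl1 window, between -74 and 56 bp from the summit. Tet2 KO peaks were found at 2 of the 5, beside 21.2% of all WT peaks with a CArG box. CRE octamers were in 2 of 42, beside 1.43%. Jun-type octamers were in 3 of 42, at the Jun promoter, Fos -1.6 kb and Fosb -6.8 kb, beside 2.53%. The counts are small, and a match is a run of letters, not a bound site. Member peaks were also richer in GC than the list at large, with a median of 61.1% against 53.2%, and the part of GC content in the motif shares was not tested.

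**Figure D4:**
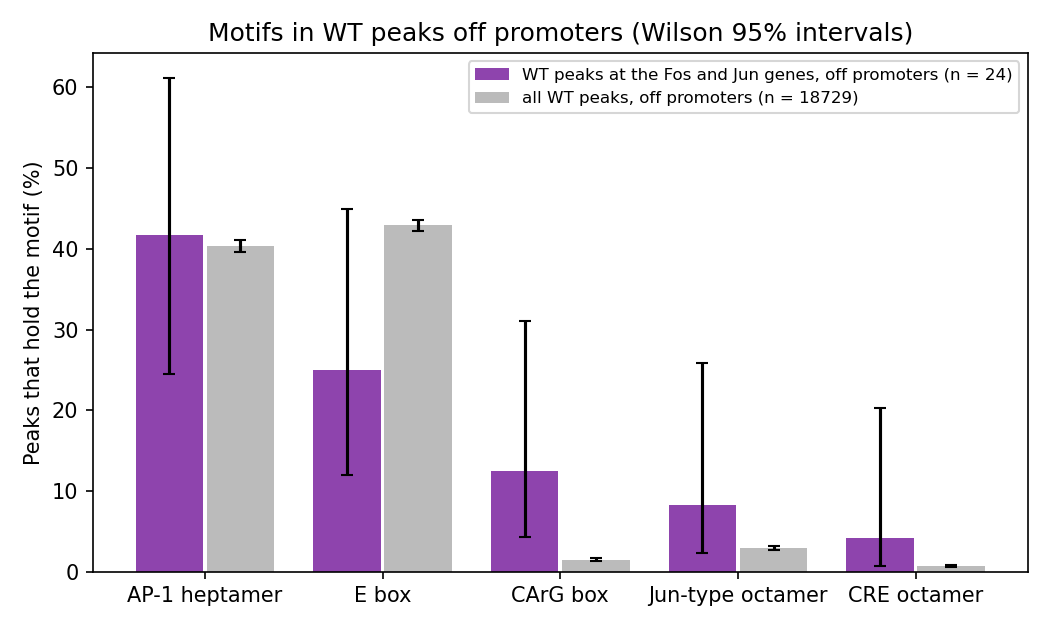
Share of WT peaks off promoters that hold each motif (y axis, percent), for the 24 at the Fos and Jun genes in purple and all 18729 in grey, with Wilson 95% intervals as error bars. The AP-1 shares are 41.7 and 40.3%, and the CArG box shares 12.5 and 1.53%.

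Promoters of the wider AP-1 pathway were read from the same lists. Of 15 dimer partners and relatives, among them the ATF, CREB, BATF and small MAF proteins, 11 had a WT promoter peak and 4 a Tet2 KO promoter peak. The latter were Atf3, Atf4, Atf7 and Crem, with folds of 10.5, 8.05, 10.7 and 10.6 in WT and 5.69, 4.71, 5.64 and 4.25 in Tet2 KO. Of 14 upstream kinases and the factors they act on, 10 had a WT and 4 a Tet2 KO promoter peak. These 4 were Mapk9, a JNK kinase, Mapk14, a p38 kinase, and Srf and Elk1, which bind the serum response element together, with Srf at 9.38 and 6.16 and Elk1 at 9.13 and 5.42. Of 15 other immediate early genes, 8 had a WT and 3 a Tet2 KO promoter peak, namely Btg2, Klf6 and Egr1, and for Egr1 the folds were 7.88 and 4.42. For comparison the Fos and Jun genes themselves had 4 and 2 of 7. In each of these groups the share was above that over all protein-coding genes in both lists (30.9% and 8.04%), and no test of the groups was made.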

How the data were processed

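Reads of 150 bp were trimmed, aligned to mm9 with Bowtie2, filtered on mapping quality and stripped of duplicates, and peaks were called per sample with MACS2 by the authors. Versions are not given in the sources used here. The fold enrichment the authors deposited is a ratio, the summit over the local background of its library with a pseudocount of 1. The deposited −log10 p and −log10 q are those of MACS2 at the summit. Each list was matched to its genotype by its name, and to no replicate. Total read numbers are not known, and intervals cover counting error only.

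Fragments at summit and background were solved from fold and −log10 p (tolerance 0.001), which 55 WT peaks and 1 Tet2 KO peak allowed in more than 1 way. The method was tested on simulated data. A shared base (1 bp) counted as overlap. Motifs were searched on both strands of NCBIM37, which is mm9, with distances from a start taken to the first base of the match and those from a summit to its middle. The members, all of which are named with every peak, and the gene lists were chosen with earlier results of these data known. From the lists, genes with a Tet2 KO promoter peak are named. Python 3.11.15, pandas 2.3.3, scipy 1.17.1 and pysam 0.24.0 were used. Sequences are printed for selected WT peaks only. mRNA-seq, methylation and signal tracks were not used here.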

Additional observations from a re-analysis of the deposited data

How the results depend on the processing

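No paired analysis was possible because the labels' replicate numbers cannot be tied to the peak lists, 1 per genotype, and for the same reason no replicate could be left out. Of 36 alternative values, 28 stayed within 1.5 times the main count or within the interval of the main share. When only peaks with a −log10 q from 10 upward were kept, 24 WT and 3 Tet2 KO peaks remained in the windows, 2 genes had a WT promoter peak (Fosl2 and Jun) and 0 a Tet2 KO one. Windows of 10000 bp held 15 WT and 3 Tet2 KO peaks, and windows of 100000 bp 71 WT peaks. With promoters of 3000 bp on either side, 7 genes had a WT promoter peak. These alternatives change the peaks kept or the sequence covered by construction. The share of WT peaks with a Tet2 KO peak ranged from 12.5 to 20% over all its alternatives. The CArG box count was 5 also within 100 bp of the summit, a check added after the data were seen. Peaks at these genes rest on few fragments, with 8 at the lowest summit in WT and 10 in Tet2 KO.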

Other observations

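CArG boxes were also counted in the WT peaks within 50 kb of the other gene lists, for comparison with 5 of 42 at the Fos and Jun genes. Near the 15 other immediate early genes they were in 4 of 67 WT peaks (5.97%, interval 2.35 to 14.4%), and near the 14 upstream kinases and their factors in 3 of 60 (5.0%, interval 1.72 to 13.7%). Near the 15 dimer partners and relatives they were in 0 of 52 (upper bound of the interval 6.88%), near the satellite cell and myoblast markers in 0 of 58 (upper bound 6.21%), and near the markers of other cells in 1 of 29. The intervals of the Fos and Jun genes and of the other immediate early genes overlapped. The share of WT peaks with a Tet2 KO peak was 16.4% near the other immediate early genes, 16.7% near the kinases and their factors and 17.3% near the dimer partners, all inside the interval of the Fos and Jun genes. It was 25.9% near the satellite cell and myoblast markers, where 15 of 58 WT peaks had one, and 27.6% near the markers of other cells of muscle, where 8 of 29 had one. Both of these shares lie inside that interval as well.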
